A study of Mus musculus with 12 samples.

Results

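Collagen genes were followed across 12 libraries of whole mouse spinal cord, as the rows whose symbol reads Col, a number, the letter a and a number. The rule found 44 of the 38924 gene rows, and 42 of them were among the 17189 genes with enough counts to be tested. Col10a1 and Col17a1 did not pass that filter, with at most 7 and 8 expected counts in a library. By class, 8 members are fibrillar, 7 are of the cartilage type (6 tested), 8 belong to basement membranes, 6 form beaded filaments, 6 are fibril-associated, 3 form networks or anchoring fibrils, 4 are transmembrane (3 tested) and 2 are other.

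The mice were 8 weeks old, on a B6J;FVB background. Of these, 6 carried 1 copy of a deletion named ETAQ in Gars, which encodes glycyl-tRNA synthetase (genotype ETAQ+/-). The other 6 were wild type (WT, genotype ETAQ+/+), and females and males numbered 3 each in both genotypes. Each library came from 1 mouse and is named by the mouse number of its title. The labels give no litter, dissection or preparation date, and they name a pair of library kits without saying which mouse was prepared with which.

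Collagens are the main structural proteins of connective tissue, and their chains assemble as helical trimers. Fibrillar chains (types I, III and V) build the fibres of bone, dura and other fibrous tissue, type IV chains build the sheet under endothelium and around nerve fibres, and type II, IX and XI chains form the thin fibrils of cartilage. The cord itself is poor in fibrillar collagen, which in and around it is known from meningeal and perivascular fibroblasts, while the vertebrae, nerve roots and muscle around it are rich in it.

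The mice were compared in 2 sets by mouse number, 1 to 6 and 7 to 12, and by genotype. The division into sets was drawn in earlier work on these data, after the libraries were seen to separate by it, so its calls describe these libraries and are no independent evidence of a division. Each set holds 3 mice of each genotype, but the first has 5 males and 1 female and the second 1 male and 5 females. Among WT mice, all males are in the first set and all females in the second, so there sex and set cannot be told apart; among ETAQ+/- mice, female 1 stands against females 8 and 9, and males 5 and 6 against male 11. The fit therefore separates set from sex through mice 1 and 11. Library totals ran from 23595944 to 41452700 expected counts, and 20934 to 22006 genes were above 0 in a library.

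Markers of the labelled tissue were high in every library: 10 genes of cord neurons and glia, among them Snap25, Mbp and Gfap, summed to 25170 to 30560 TPM (a level scaled by gene length and library total) in mice 1 to 6 and 23578 to 26867 TPM in mice 7 to 12. Markers of neighbouring tissue were also present, and differed between the sets. Between the sets, 8 of 8 marrow neutrophil, 7 of 7 red cell, 8 of 8 skeletal muscle, 5 of 6 Schwann cell, 8 of 12 fibroblast, 3 of 10 bone-forming, 2 of 5 osteoclast, 1 of 9 cartilage and 1 of 6 endothelial genes were called higher in mice 1 to 6 (edgeR, adjusted p under 0.05), beside 4.93% of all genes tested. In lists this short, 1 call of 9 or of 6 is not set apart from that background. None of the 5 tendon genes and none of the 6 pericyte and smooth muscle genes was called. In each of these lists 2 genes had an unadjusted p under 0.05. Over all genes tested 3764 of 17189 did with edgeR on all 12 mice, the background for such counts of that fit below. Counts between the sets from DESeq2, limma-voom or fewer mice have backgrounds of their own, which are not given here. DESeq2 called 0 of the tendon and 2 of the pericyte genes, and limma-voom 0 and 0. With limma-voom the count fell to 1 of 8 for skeletal muscle and 5 of 12 for fibroblasts. With edgeR the 1 call lower in mice 1 to 6 in these lists was Slc17a6, a glutamate transporter of neurons, by -0.19 ± 0.04 (log2 fold change ± SE, adjusted p = 0.0108); DESeq2 also called Aqp4 lower.

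The summed levels of the lists were as follows. Marrow neutrophil genes summed to 438 to 870 TPM in mice 1 to 6 and to 2.46 to 19.9 TPM in mice 7 to 12, and skeletal muscle genes to 59.6 to 828 and 1.96 to 5.13 TPM. Red cell genes summed to 7076 to 13184 and 558 to 1129 TPM, and Schwann cell genes to 696 to 1057 and 492 to 593 TPM. In each of these 4 lists the sets did not overlap. Mal, the 1 Schwann cell gene of 6 not called between the sets, made up 616 of 861 TPM of that sum in mouse 6. In mouse 5 it made up 591 of 1029 TPM, so the Schwann cell sum is a poor measure of the called genes. Fibroblast genes summed to 863 to 1666 and 610 to 797 TPM, and osteoclast genes to 18.2 to 31.4 and 12.7 to 17.2 TPM, again without overlap. The fibroblast sum was mostly 1 gene, Ptgds, at 1446 of 1666 TPM in mouse 2 and 1212 of 1332 TPM in mouse 4. DESeq2 called Ptgds between the sets and edgeR did not. Bone-forming genes (194 to 241 and 177 to 222 TPM), cartilage genes (47.9 to 52.4 and 45.7 to 56.2 TPM), tendon genes (20.7 to 42.6 and 20.3 to 25.8 TPM), endothelial genes (142 to 178 and 111 to 157 TPM) and pericyte genes (87.0 to 115 and 90.5 to 100.2 TPM) overlapped in their sums. The bone-forming sum was mostly Spp1 and Phospho1, at 132 and 83.8 of 241 TPM in mouse 3. Neither was called between the sets, and motor neurons also express Spp1, so this sum is a poor measure of bone-forming cells. The cartilage sum was mostly Sox9, Hapln1 and Acan, at 19.5, 11.4 and 8.21 of 52.1 TPM in mouse 3. None of these was called between the sets, and the overlap of this sum does not show equal amounts of cartilage. No gene of any list was at 0 in all mice of a set, but Bglap, the osteocalcin gene of osteoblasts, was listed at 0 in mice 7, 8, 10 and 12. The part of these tissues in the collagen differences below was not tested. In bulk tissue, more cells of a type and more RNA per cell cannot be told apart.

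Across all 12 mice the 5 collagen genes of highest mean level were Col16a1 at 36.6 TPM, Col11a2 at 33.8, Col1a2 at 27.2, Col11a1 at 27.0 and Col4a2 at 24.3. Col16a1 encodes a fibril-associated chain, Col11a1 and Col11a2 the chains of thin cartilage-type fibrils, Col1a2 the second chain of type I collagen and Col4a2 a chain of basement membranes. The ranges of these 5 genes overlapped with those of their neighbours in this order. In mice 7 to 12 Col1a1, which encodes the main chain of type I collagen, ranked only 22nd of the 44 members by mean level, and in mice 1 to 6 it ranked 6th. Summed over all members, collagen transcripts stood at 329 to 426 TPM in mice 1 to 6 and at 287 to 328 TPM in mice 7 to 12, a ratio of means of 1.17. The source tissue of the transcripts was not tested, so the members are called collagen genes here, by their rule, and not genes of meninges or bone.

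Between the sets 13 of the 42 tested collagen genes rose in mice 1 to 6 (31.0%) and 0 fell, beside 7.89% of all genes tested (4.93% higher and 2.96% lower). The called genes were Col1a1, Col1a2, Col3a1, Col5a1, Col5a3, Col4a1, Col4a5, Col4a6, Col15a1, Col8a1, Col8a2, Col14a1 and Col28a1. The median log2 fold change over the 42 was 0.30, beside 0.0045 over all genes, and 36 were above 0. In 10 of the 42 the normalised counts scaled to library size (CPM) of the sets did not overlap, all higher in mice 1 to 6, beside 5% of all genes higher without overlap. The calls rest on the 2 mice that part sex from set: without mouse 1 the fit called 0 of 42 (16 at an unadjusted p under 0.05) and without mouse 11 it called 1, Col15a1, while leaving out any other mouse gave 12 to 15. The median stayed at 0.36 without mouse 1 and 0.27 without mouse 11. The shares of all genes in the fits that leave out a mouse are not given here. In the same fit the sex term called 0 of 42, beside 0.0524% of all genes. At an unadjusted p under 0.05 were 2 of 42, beside 611 of 17189 genes.

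**Figure D1:**
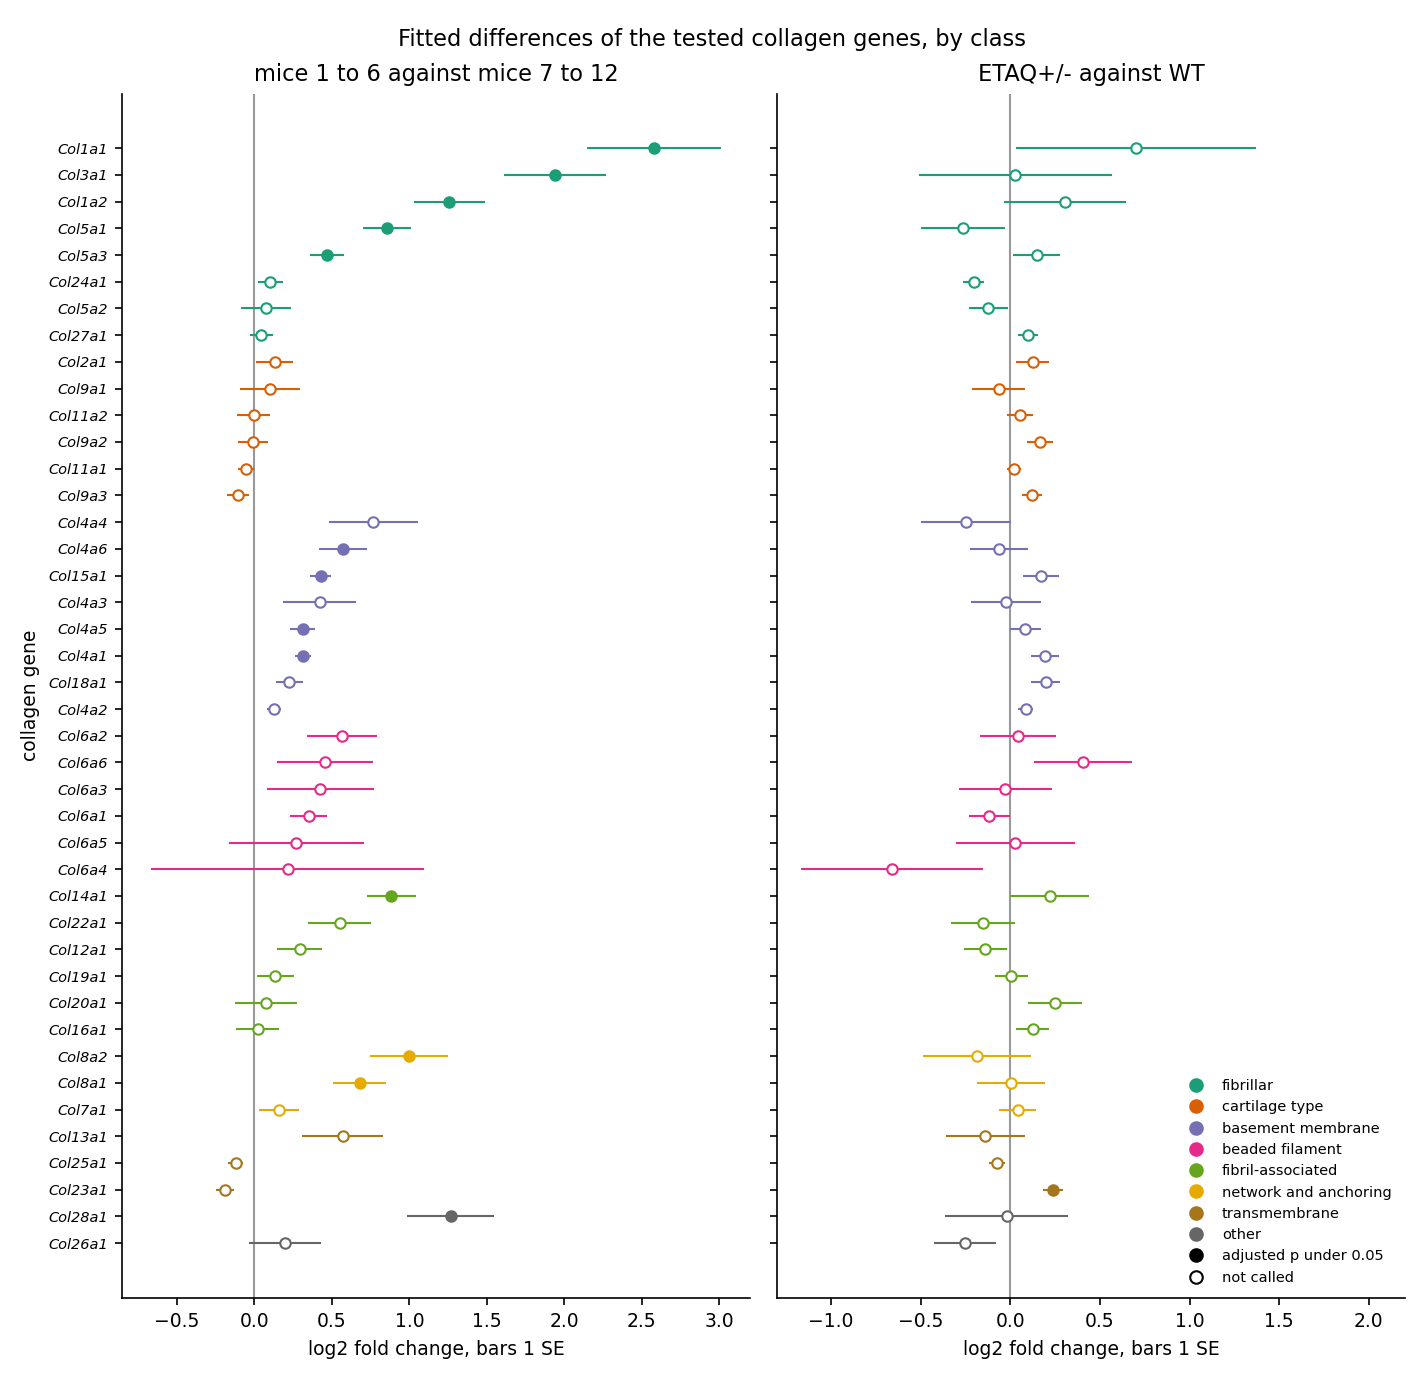
Log2 fold change (x axis) of the 42 tested collagen genes (y axis, grouped by class), between the sets of mice on the left and between the genotypes on the right. Points are fitted values with bars of 1 SE, and filled points have an adjusted p under 0.05: 13 on the left, all above 0, and 1 on the right, Col23a1.

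Sequence before the start of transcription is shown for 4 members that differ in these results: Col3a1, called between the sets; Col11a1 and Col11a2, of similar level in both; and Col23a1, called between the genotypes. They were chosen after their values were seen, from RefSeq (GRCm38.p6), which held 38 promoters of 35 collagen genes. Each run is the 250 bases before the start on the plus strand, at chr1:45311288-45311537 for Col3a1, chr3:114030290-114030539 for Col11a1, chr17:34038888-34039137 for Col11a2 and chr11:51289670-51289919 for Col23a1. Capitals mark every match, on either strand, to the CCAAT box, to the sequence TATAAA or to the GC box GGGCGG. No match overlaps another here.
Col3a1: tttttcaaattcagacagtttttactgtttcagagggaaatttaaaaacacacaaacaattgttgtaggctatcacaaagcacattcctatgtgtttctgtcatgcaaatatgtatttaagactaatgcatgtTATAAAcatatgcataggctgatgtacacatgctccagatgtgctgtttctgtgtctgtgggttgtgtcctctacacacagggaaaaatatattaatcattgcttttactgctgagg
Col11a1: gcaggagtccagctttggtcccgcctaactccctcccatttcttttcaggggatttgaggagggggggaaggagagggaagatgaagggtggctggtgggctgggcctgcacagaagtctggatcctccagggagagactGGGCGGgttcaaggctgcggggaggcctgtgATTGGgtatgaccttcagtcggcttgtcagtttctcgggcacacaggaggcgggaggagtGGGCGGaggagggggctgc
Col11a2: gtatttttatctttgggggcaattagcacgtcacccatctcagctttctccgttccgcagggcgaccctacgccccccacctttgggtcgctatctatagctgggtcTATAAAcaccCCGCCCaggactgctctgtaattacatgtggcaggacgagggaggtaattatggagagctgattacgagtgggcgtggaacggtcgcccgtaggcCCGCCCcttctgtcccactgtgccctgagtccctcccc
Col23a1: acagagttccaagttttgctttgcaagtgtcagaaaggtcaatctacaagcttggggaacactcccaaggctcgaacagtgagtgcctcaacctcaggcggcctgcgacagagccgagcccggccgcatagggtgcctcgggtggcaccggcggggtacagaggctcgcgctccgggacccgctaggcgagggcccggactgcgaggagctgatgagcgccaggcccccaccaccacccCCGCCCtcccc
Within these 250 bases Col3a1 holds 1 TATAAA, Col11a1 1 CCAAT and 2 GGGCGG, Col11a2 1 TATAAA and 2 GGGCGG, and Col23a1 1 GGGCGG. Over windows of the same length before 32851 RefSeq starts, 33.85% held CCAAT, 12.37% TATAAA and 32.74% GGGCGG. Of the 38 collagen promoters 13 held CCAAT (34.21%), 5 TATAAA (13.16%) and 22 GGGCGG (57.89%). These matches describe letters only.

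Among fibrillar collagens, 5 of 8 rose in mice 1 to 6, with a class median log2 fold change of 0.66. Col1a1 (ENSMUSG00000001506, chromosome 11, 94936224 to 94953042, GRCm38) stood at 16.95, 21.1, 11.4, 18.8, 13.0 and 39.8 TPM in mice 1 to 6 and at 3.07, 4.12, 3.14, 3.13, 3.23 and 2.50 TPM in mice 7 to 12. Every mouse of the first set lay above every mouse of the second, and mouse 6 stood far above the rest of its set. The log2 fold change was 2.58 ± 0.43 (SE, adjusted p = 0.01), and the means were 20.2 ± 10.3 and 3.20 ± 0.522 TPM (SD, n = 6 each). Within ETAQ+/- females, mouse 1 (16.95 TPM) lay above mice 8 and 9 (4.12 and 3.14), and within ETAQ+/- males, mice 5 and 6 (13.0 and 39.8) lay above mouse 11 (3.23).

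Col1a2 (chromosome 6, 4504814 to 4541544), the partner chain of Col1a1 in type I collagen, stood at 36.2, 38.1, 29.4, 33.5, 29.7 and 54.8 TPM in mice 1 to 6 and at 17.4, 19.0, 16.9, 15.6, 18.0 and 17.4 TPM in mice 7 to 12. The sets again did not overlap, at a smaller log2 fold change of 1.26 ± 0.23 (adjusted p = 0.0138). Col3a1 (chromosome 1, 45311538 to 45349706), the chain of type III collagen in soft tissue and vessel walls, read 9.48, 16.4, 6.90, 9.92, 7.07 and 11.4 TPM in mice 1 to 6. In mice 7 to 12 it read 2.81, 2.93, 2.34, 2.96, 2.69 and 2.33 TPM. Its highest mouse was 2, not 6, and its log2 fold change was 1.94 ± 0.33 (adjusted p = 0.00992).

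Type V chains, which set the diameter of type I fibrils, were unequal. Col5a1 rose by 0.86 ± 0.15 on the log2 scale (adjusted p = 0.00639), from 1.68 to 3.01 TPM in mice 7 to 12 (median 1.99) to 2.64 to 4.55 in mice 1 to 6 (median 3.46), with overlap in TPM through mouse 12. Col5a3 rose by 0.47 ± 0.11 (adjusted p = 0.018). Col5a2 (chromosome 1, 45374321 to 45503282) stood at 7.19 to 11.5 TPM (median 8.96) in mice 1 to 6 and 7.17 to 9.84 TPM (median 9.18) in mice 7 to 12, a log2 fold change of 0.07 ± 0.16 (adjusted p = 0.843). Col24a1 and Col27a1, the remaining fibrillar members, had log2 fold changes of 0.10 ± 0.08 and 0.04 ± 0.07 and were not called.

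Col3a1 and Col5a2 are neighbours on chromosome 1, on opposite strands with their 3′ ends facing each other 24.6 kb apart. The level of Col5a2 over that of Col3a1, in TPM, was 0.700 to 1.30 in mice 1 to 6 and 3.08 to 3.79 in mice 7 to 12. Col5a2 was thus the higher of the pair in every mouse of the second set, and in the first set only in mice 3 and 5. The ratio of Col1a1 to Col1a2 was 0.386 to 0.726 in mice 1 to 6 and 0.144 to 0.217 in mice 7 to 12, so both chains of type I collagen differed between the sets, but not in proportion. These pairs were chosen after the values were seen, and their ratios are given with no test.

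**Figure D2:**
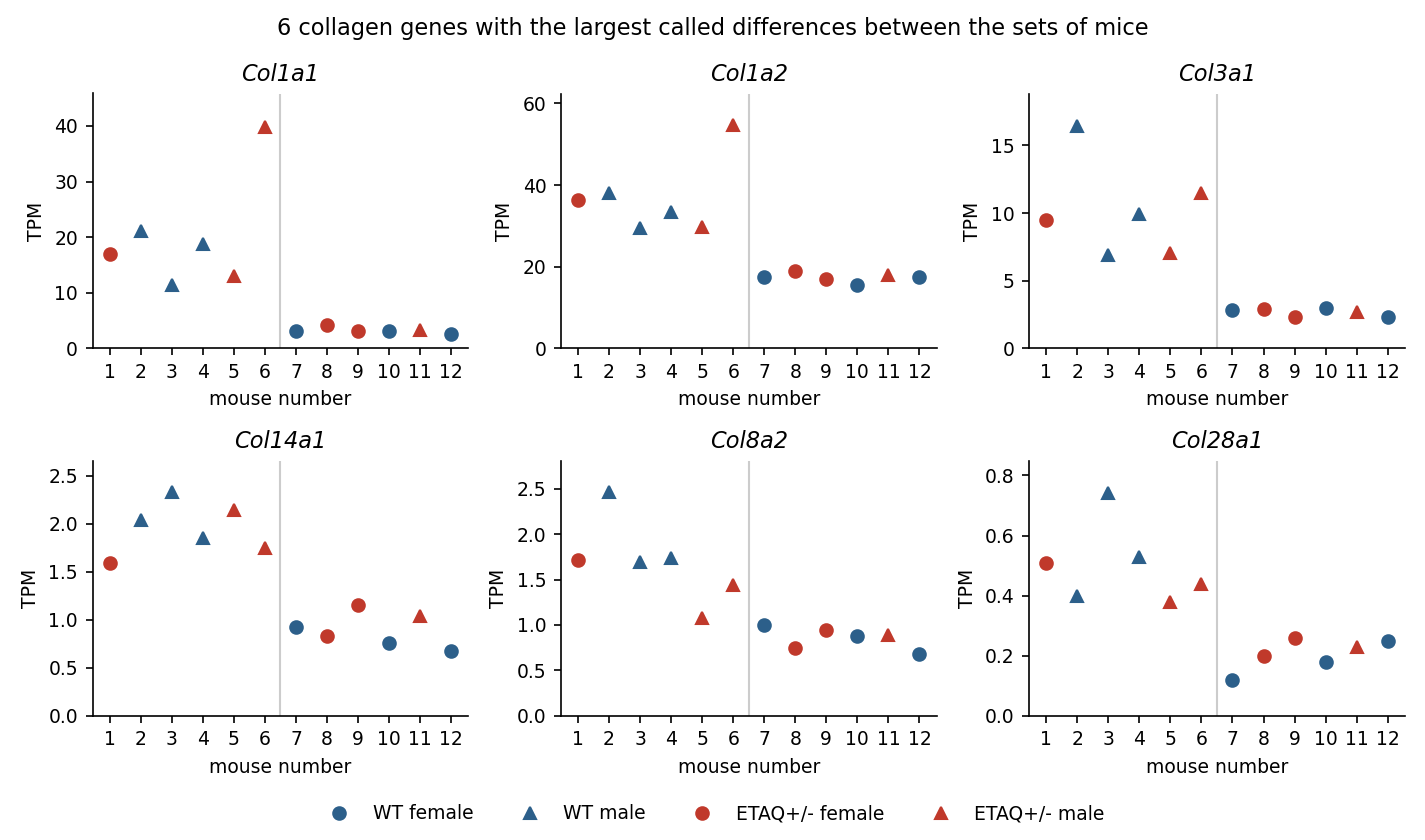
Level in TPM (y axis) of 6 collagen genes in each mouse (x axis, mouse number; circles females, triangles males; blue WT, red ETAQ+/-), with a grey line between the sets. These are the 6 called genes with the largest log2 fold changes between the sets, so the choice favours separation. In all 6 panels every mouse from 1 to 6 lies above every mouse from 7 to 12. The highest mouse is 6 for Col1a1 and Col1a2, 2 for Col3a1 and Col8a2, and 3 for Col14a1 and Col28a1.

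Cartilage-type collagens gave no call: 0 of 6 tested were called between the sets by edgeR, DESeq2 or limma-voom, 0 had an unadjusted p under 0.05 in any of the 3, and the class median log2 fold change was -0.0068. Col11a2 (chromosome 17, 34039437 to 34066685) stood at 28.4 to 40.7 TPM (median 31.4) in mice 1 to 6 and 32.5 to 36.8 TPM (median 35.9) in mice 7 to 12. Its log2 fold change was -0.01 ± 0.11 (adjusted p = 0.986). Col11a1 (chromosome 3, 114030540 to 114220718) stood at 25.5 to 27.7 TPM (median 25.8) and 24.2 to 29.9 TPM (median 28.4), a log2 fold change of -0.05 ± 0.05 (adjusted p = 0.619). Both genes ranked among the 4 highest collagens in each set, and their sets overlapped.

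Col9a3, a chain of the type IX collagen that decorates cartilage fibrils, stood at 16.8 to 21.8 TPM (median 20.2) in mice 1 to 6 and 18.6 to 23.9 TPM (median 20.6) in mice 7 to 12 (log2 fold change -0.11 ± 0.07, adjusted p = 0.41). On the opposite strand 6.07% of its exon bases overlap Tcfl5, so reads of the pair may be mixed if counting ignored strand. Col2a1, the main chain of hyaline cartilage, was low at 1.63 to 2.26 and 1.39 to 2.72 TPM, and Col10a1, of hypertrophic cartilage, never exceeded 0.12 TPM. Col11a1, Col11a2 and Col9a3 were thus each higher than Col2a1 in all 12 mice; Col2a1 and Col10a1 were singled out after their values were seen. In the cartilage marker list edgeR and DESeq2 each called Comp (log2 fold change 1.51 ± 0.42 in edgeR, adjusted p = 0.0389) and limma-voom Comp and Chad, and 3 of 9 had an unadjusted p under 0.05.

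Of the basement membrane collagens, 4 of 8 rose in mice 1 to 6, with a class median log2 fold change of 0.37 and called log2 fold changes from 0.31 to 0.57. Col4a1 (chromosome 8, 11198423 to 11312826), a chain of the common type IV network, stood at 16.4 to 20.4 TPM (median 19.1) in mice 1 to 6 and 12.9 to 17.6 TPM (median 15.7) in mice 7 to 12. Its log2 fold change was 0.31 ± 0.05 (adjusted p = 0.0016), with no overlap in normalised CPM but overlap in TPM. Col4a2 (chromosome 8, 11312805 to 11449287), its partner chain, stood at 22.5 to 25.9 TPM (median 25.4) and 20.2 to 26.4 TPM (median 24.4), a log2 fold change of 0.12 ± 0.04 (adjusted p = 0.107). These genes lie head to head, on opposite strands, and their annotated first exons overlap by some bases. The ratio of Col4a1 to Col4a2 was 0.726 to 0.790 in mice 1 to 6 and 0.621 to 0.676 in mice 7 to 12, without overlap; the pair was looked at after the values were seen.

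Col15a1, whose product bridges basement membranes and fibrils around vessels, nerve and muscle, rose by 0.43 ± 0.07 (adjusted p = 0.000985). It stood at 5.92 to 8.92 TPM (median 7.16) in mice 1 to 6 and 4.48 to 6.81 TPM (median 4.95) in mice 7 to 12, and was the call that remained without mouse 11. Col4a5 and Col4a6, which share a head-to-head locus on the X chromosome with 1.31 kb between them, rose by 0.31 ± 0.08 (adjusted p = 0.026) and 0.57 ± 0.15 (adjusted p = 0.0335). Without mouse 1, which was the highest for Col4a5 at 5.63 TPM, no gene of the class was called. Col4a3, Col4a4 and Col18a1 had log2 fold changes of 0.42 ± 0.24, 0.77 ± 0.29 and 0.23 ± 0.09 and were not called. Beside these values, Pecam1 was the 1 of 6 endothelial genes called (0.38 ± 0.08, adjusted p = 0.0066), and 5 of 6 Schwann cell genes were.

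None of the 6 beaded-filament genes was called between the sets by edgeR or limma-voom (2 at an unadjusted p under 0.05 in edgeR), though all 6 log2 fold changes were above 0 (median 0.39), and DESeq2 called Col6a1. Col6a1, Col6a2 and Col6a3, the chains of the common type VI collagen around muscle and nerve, stood at 9.97 to 14.8, 5.89 to 11.1 and 1.71 to 3.44 TPM in mice 1 to 6. In mice 7 to 12 the same genes stood at 9.96 to 11.6, 5.78 to 7.50 and 1.82 to 3.65 TPM, so the sets overlapped for each. Their log2 fold changes were 0.35 ± 0.12, 0.56 ± 0.23 and 0.42 ± 0.34. Col6a4, Col6a5 and Col6a6 never exceeded 0.82 TPM.

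Of 6 fibril-associated genes, Col14a1 was called. Its product binds the surface of type I fibrils, and it stood at 1.59, 2.04, 2.33, 1.85, 2.14 and 1.75 TPM in mice 1 to 6 and at 0.93, 0.83, 1.15, 0.76, 1.04 and 0.68 TPM in mice 7 to 12. The sets did not overlap, with a log2 fold change of 0.88 ± 0.16 (adjusted p = 0.0025). Col16a1, the highest collagen gene in mice 7 to 12, was level between the sets at 31.2 to 44.0 TPM (median 37.0) and 30.9 to 39.6 TPM (median 37.2), with a log2 fold change of 0.02 ± 0.14 (adjusted p = 0.953). Col12a1, at 6.16 to 8.85 and 4.86 to 7.12 TPM, and Col19a1, at 2.73 to 4.12 and 2.50 to 3.60 TPM, had log2 fold changes of 0.29 ± 0.15 and 0.13 ± 0.12 and were not called.

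Both type VIII genes, whose short chains form the hexagonal networks of vessel walls and of the cornea's basal sheet, rose in mice 1 to 6. Col8a2 stood at 1.72, 2.46, 1.69, 1.74, 1.08 and 1.44 TPM in mice 1 to 6 and at 1.0, 0.75, 0.94, 0.88, 0.89 and 0.68 TPM in mice 7 to 12 (log2 fold change 1.0 ± 0.25, adjusted p = 0.0295). Col8a1 rose by 0.68 ± 0.17 (adjusted p = 0.0238), from 0.87 to 1.06 TPM to 1.16 to 1.85 TPM, again without overlap. Col7a1, of anchoring fibrils, stood at 1.36 to 1.63 and 1.12 to 1.69 TPM and was not called.

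Col28a1, a type VI-like chain known from the basement membranes of peripheral nerve, was low but separated the sets. It stood at 0.51, 0.40, 0.74, 0.53, 0.38 and 0.44 TPM in mice 1 to 6 and at 0.12, 0.20, 0.26, 0.18, 0.23 and 0.25 TPM in mice 7 to 12, from 225 and 86 expected counts in all. Its log2 fold change was 1.27 ± 0.28 (adjusted p = 0.0115). Col26a1, at 3.98 to 5.35 and 3.06 to 5.99 TPM, was not called.

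Transmembrane collagens, whose chains sit in the plasma membrane and of which Col25a1 is known from neurons, gave 0 of 3 calls between the sets with edgeR, all 3 at an unadjusted p under 0.05; DESeq2 and limma-voom each called Col23a1. Col25a1 stood at 12.2 to 15.0 TPM (median 12.6) in mice 1 to 6 and 14.6 to 15.5 TPM (median 14.9) in mice 7 to 12, a log2 fold change of -0.12 ± 0.05 (adjusted p = 0.157). Col23a1 stood at 8.08 to 11.4 TPM (median 9.82) and 11.01 to 14.5 TPM (median 11.9), a log2 fold change of -0.19 ± 0.06 (adjusted p = 0.0625). The fitted values of both genes were thus lower in mice 1 to 6, and their ranges overlapped. Col13a1, a muscle and synapse collagen, had a log2 fold change of 0.57 ± 0.26 and was not called.

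As sums over a class, fibrillar collagens stood at 89.8, 107, 73.7, 87.4, 73.3 and 135 TPM in mice 1 to 6 and at 49.4, 50.1, 46.5, 46.6, 47.9 and 43.9 TPM in mice 7 to 12, a ratio of set means of 1.99. Cartilage-type collagens stood at 84.3 to 102 TPM and 94.7 to 109 TPM, a ratio of 0.924. Basement membrane collagens stood at 55.8 to 66.7 and 46.3 to 60.4 TPM (1.14), and beaded filaments at 19.6 to 29.8 and 19.2 to 22.1 TPM. Of the summed collagen level, the fibrillar share was 21.6% to 31.8% in mice 1 to 6 and 14.2% to 15.9% in mice 7 to 12, and the cartilage-type share 23.0% to 28.5% and 31.3% to 33.9%. Transmembrane collagens summed to 22.3 to 26.3 TPM in mice 1 to 6 and 26.6 to 31.0 TPM in mice 7 to 12 (0.850), without overlap. The transmembrane share was 5.72% to 7.66% in mice 1 to 6 and 8.86% to 9.48% in mice 7 to 12. The mix of collagen transcripts thus separated the sets in the fibrillar, cartilage-type and transmembrane shares. Shares of the same total are tied, so a higher fibrillar sum by itself lowers the cartilage-type and transmembrane shares. The summed level of the cartilage type overlapped between the sets.

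**Figure D3:**
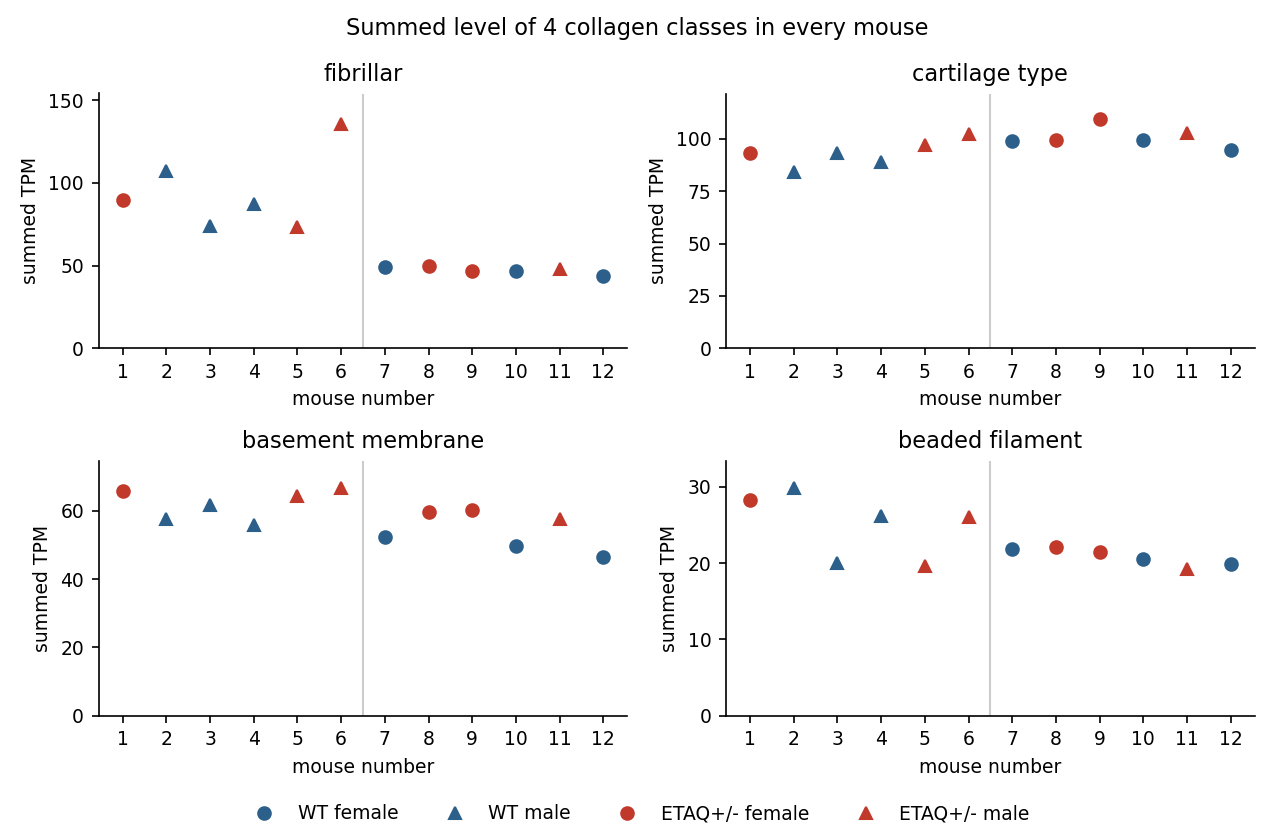
Summed level in TPM (y axis) of 4 collagen classes in each mouse (x axis; circles females, triangles males; blue WT, red ETAQ+/-), with a grey line between the sets. Fibrillar sums lie at 73.3 to 135 TPM in mice 1 to 6 and 43.9 to 50.1 TPM in mice 7 to 12, while the sets overlap in the 3 other classes.

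Proteins that modify, cut, bind and degrade collagen were read from a list of 61 genes, 60 of them tested. Between the sets 10 of the 60 rose in mice 1 to 6 and 0 fell, beside the 7.89% given above for all genes, with a median log2 fold change of 0.18. Of 20 genes for modification and folding of the chains, 1 was called: Serpinh1, the collagen-specific chaperone, by 0.44 ± 0.08 (adjusted p = 0.00373), from 17.4 to 20.0 TPM in mice 7 to 12 to 21.1 to 28.4 TPM in mice 1 to 6.

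Of 12 genes for propeptide cleavage and crosslinking, 2 were called. Lox, the lysyl oxidase that crosslinks fibrils, stood at 1.53 to 3.46 TPM in mice 1 to 6 and 0.23 to 0.46 TPM in mice 7 to 12 (log2 fold change 2.80 ± 0.25, adjusted p = 8.0e-06). Pcolce, which enhances cleavage of the type I propeptide, rose by 1.65 ± 0.32 (adjusted p = 0.0129) and was highest in mouse 2 at 16.4 TPM. Of 10 proteins of the fibril surface and matrix, 4 rose: Ogn by 4.28 ± 0.33 (adjusted p = 7.04e-05), Lum by 1.78 ± 0.31, Dcn by 1.62 ± 0.23 and Sparc by 0.19 ± 0.05. Dcn and Lum are also in the fibroblast list.

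Of 9 receptors, edgeR called 0 between the sets (3 at an unadjusted p under 0.05), DESeq2 called Ddr2 and Mrc2, and limma-voom called Ddr2. Of 9 tested genes of degradation, 3 rose: Mmp8, the neutrophil collagenase, by 6.83 ± 0.37 (adjusted p = 2.32e-08), Mmp9 by 0.83 ± 0.12 and Mmp13, a collagenase of bone, by 4.40 ± 0.96. Mmp8 stood at 1.54 to 2.89 TPM in mice 1 to 6 and at no more than 0.05 TPM in mice 7 to 12. Mmp9 is also in the osteoclast list, and all 8 neutrophil markers rose with it.

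Within mice 1 to 6 different collagen genes were highest in different mice, and some markers had the same highest mouse. Mouse 6 was highest for Col1a1 (39.8 TPM, next 21.1) and Col1a2 (54.8, next 38.1), and also for Bglap (14.7 TPM), Bglap2 (13.2 TPM), Ibsp (2.36 TPM), Acp5 (6.25 TPM) and Mmp13 (2.02 TPM), genes of osteoblasts, osteoclasts and bone matrix. Mouse 2 was highest for Col3a1, Col5a1 and Col8a2, and also for the fibroblast genes Dcn (56.8 TPM), Lum (7.61 TPM), Crabp2 (7.41 TPM) and Slc47a1 (4.07 TPM) and for the muscle gene Acta1 (167 TPM). Mouse 3 was highest for Col14a1 and Col28a1, and also for the Schwann cell gene Prx (25.9 TPM). Over the whole lists, mouse 6 was highest for 4 of 12 bone-forming and 5 of 7 osteoclast genes. It was also highest for 5 of 6 endothelial, 4 of 6 pericyte, 4 of 7 red cell and 4 of 10 cord genes. Mouse 2 was highest for 10 of 12 fibroblast and 6 of 8 skeletal muscle genes, and mouse 3 for 4 of 6 Schwann cell genes. Some margins were small: Col5a1 stood at 4.55 TPM in mouse 2 and 4.35 in mouse 6, and Col14a1 at 2.33 in mouse 3 and 2.14 in mouse 5. The summed bone-forming list was highest in mouse 3 at 241 TPM, not in mouse 6, but Spp1 and Phospho1 made up 132 and 83.8 TPM of it. These pairings were chosen after the values were seen, and whether the genes vary together was not tested.

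**Figure D4:**
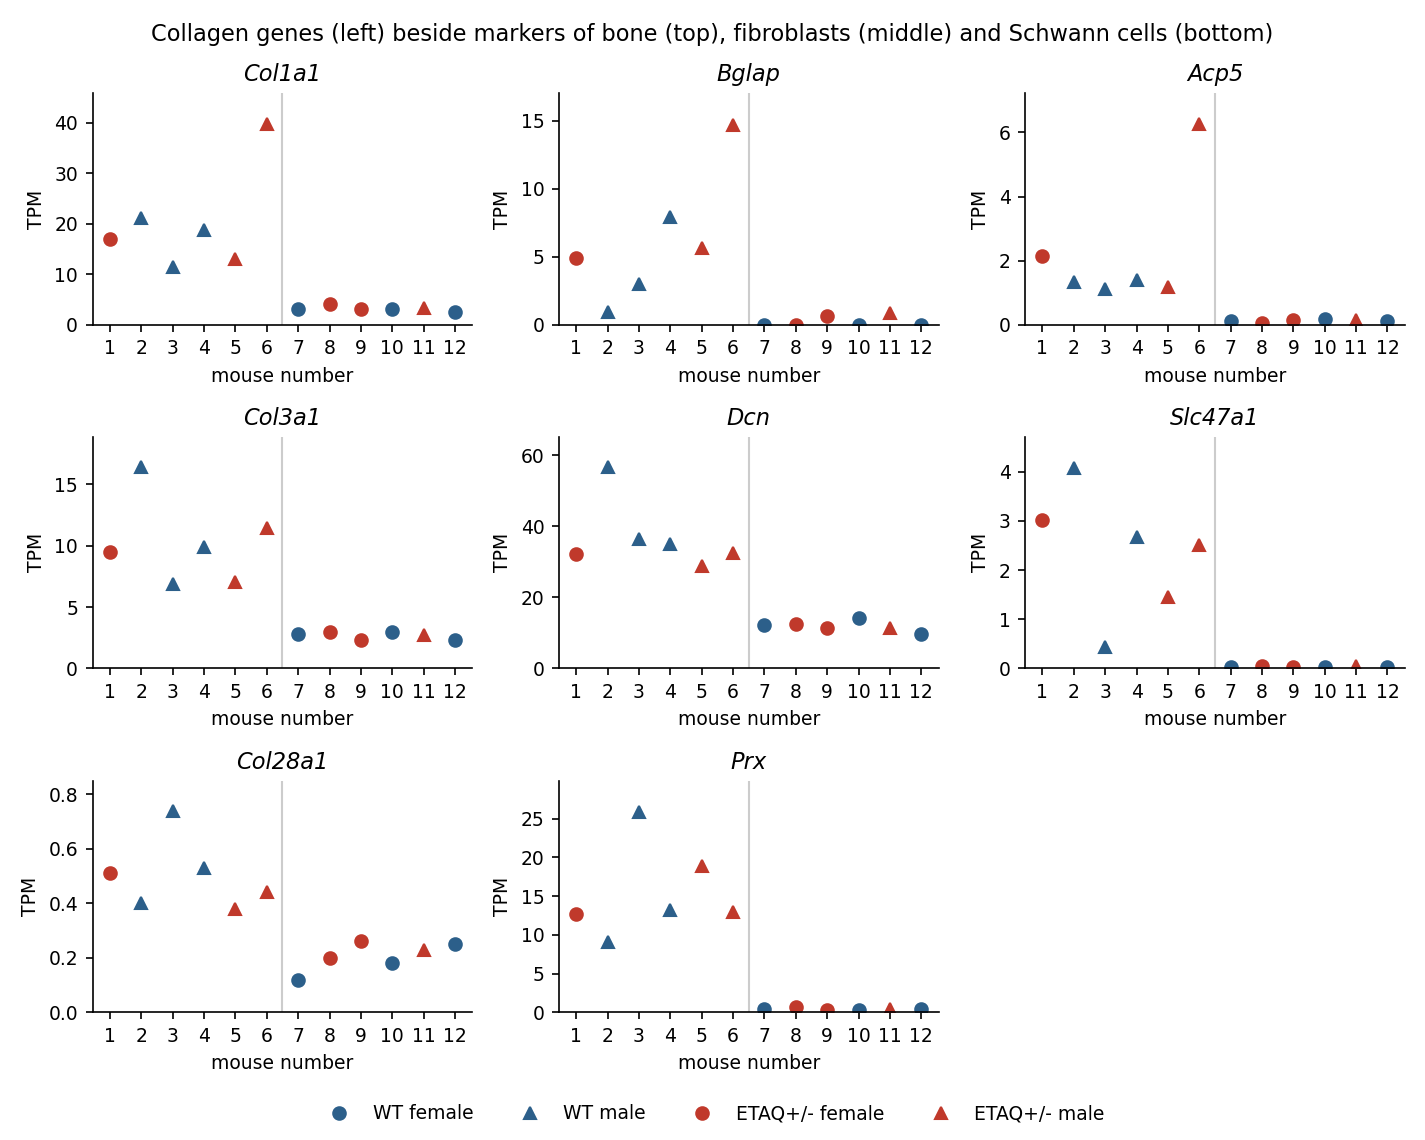
Level in TPM (y axis) of Col1a1, Col3a1 and Col28a1 (left column) in each mouse (x axis; circles females, triangles males; blue WT, red ETAQ+/-), each beside 1 or 2 marker genes, with a grey line between the sets. Mouse 6 is highest in every panel of the top row, mouse 2 in every panel of the middle row and mouse 3 in both panels of the bottom row.

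Between the genotypes 1 of 42 collagen genes was called, or 2.38%, beside 1.92% of all genes tested (0.582% higher), which is near the background. The median log2 fold change was 0.03, beside 0.0043 over all genes, and 25 of 42 were above 0. In normalised CPM 0 of 42 separated the genotypes, beside 0.657% of all genes higher and 1.35% lower without overlap. In TPM 1 of the 44 did, Col20a1, a fibril-associated chain, at 1.42 to 2.13 TPM (median 1.81) in ETAQ+/- and 0.82 to 1.17 TPM in WT mice. Its normalised CPM overlapped between the genotypes, with a log2 fold change of 0.25 ± 0.15 (adjusted p = 0.624); it was singled out after its values were seen. The main fibrillar genes were not called: Col1a1 had a log2 fold change of 0.70 ± 0.67 (adjusted p = 0.804), Col1a2 of 0.30 ± 0.34 and Col3a1 of 0.03 ± 0.54. With set of mice as a further term that of Col1a1 was 0.30 ± 0.31 (adjusted p = 0.766), and mouse 6, an ETAQ+/- male, held its highest value.

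The call was Col23a1 (chromosome 11, 51289920 to 51583918), a short transmembrane collagen, higher in ETAQ+/- mice by 0.24 ± 0.06 (adjusted p = 0.0469). In mice 1 to 6 it stood at 11.4, 10.2 and 10.7 TPM in ETAQ+/- mice 1, 5 and 6 and at 8.08, 9.11 and 9.42 TPM in WT mice 2, 3 and 4. In mice 7 to 12 it stood at 13.5, 14.5 and 11.8 TPM in ETAQ+/- mice 8, 9 and 11 and at 11.9, 11.8 and 11.01 TPM in WT mice 7, 10 and 12. The genotypes were apart in the first set and overlapped in the second. The log2 fold change was 0.28 ± 0.07 within mice 1 to 6 (adjusted p = 0.0994) and 0.20 ± 0.07 within mice 7 to 12 (adjusted p = 0.293), and their difference was 0.08 ± 0.10 (adjusted p = 0.995). DESeq2 also made the call (adjusted p = 0.00782). It was lost with limma-voom (adjusted p = 0.069) and on leaving out any 1 mouse but mouse 1, with adjusted p from 0.0555 to 0.122.

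With set as a further term 2 of 42 were called, beside 2.71% of all genes: Col23a1 (0.24 ± 0.04, adjusted p = 0.00618) and Col4a1 (0.19 ± 0.04, adjusted p = 0.0129). Col4a1 had the same size without that term (0.19 ± 0.08, adjusted p = 0.372). In mice 7 to 12 it stood at 16.7, 17.6 and 17.1 TPM in ETAQ+/- mice 8, 9 and 11 and at 14.7, 13.9 and 12.9 TPM in WT mice 7, 10 and 12, apart from each other. In mice 1 to 6 it stood at 20.0, 18.8 and 20.4 TPM in ETAQ+/- mice 1, 5 and 6 and at 17.5, 19.4 and 16.4 TPM in WT mice 2, 3 and 4, with overlap. Its partner Col4a2 had a log2 fold change of 0.08 ± 0.03 in that fit (adjusted p = 0.252).

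**Figure D5:**
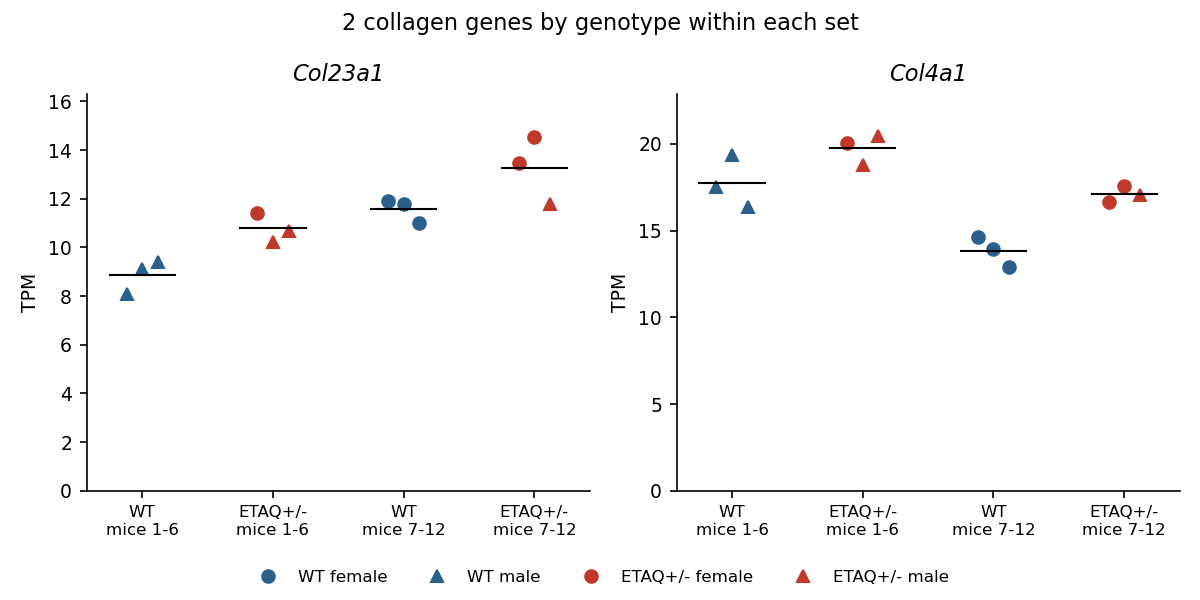
Level in TPM (y axis) of Col23a1 and Col4a1 by genotype within each set (x axis; circles females, triangles males; blue WT, red ETAQ+/-), with a bar at the mean of 3 mice. For Col23a1 the genotypes are apart in mice 1 to 6, at 8.08 to 9.42 and 10.2 to 11.4 TPM, and for Col4a1 in mice 7 to 12, at 12.9 to 14.7 and 16.7 to 17.6 TPM.

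Within a set, edgeR called 0 of 42 collagen genes between the genotypes. Of all genes it called 0.803% in mice 1 to 6 and 0.937% in mice 7 to 12. At an unadjusted p under 0.05 were 6 of 42 in mice 1 to 6, beside 1528 of 17189 genes. In mice 7 to 12 there were 5 of 42, beside 1640 of 17189. The difference of the genotype effect between the sets was called for 0 of 42, beside 0% of all genes. For that difference 3 of 42 had an unadjusted p under 0.05, beside 683 of 17189 genes. DESeq2 and limma-voom also called 0 of 42. Of 60 collagen assembly genes 1 was called between the genotypes (1.67%, near the 1.92% of all genes): Ddr2, a receptor kinase that binds fibrillar collagen, higher in ETAQ+/- mice by 0.90 ± 0.20 (adjusted p = 0.0457). It stood at 2.51 to 4.22 TPM in ETAQ+/- and 1.21 to 2.66 TPM in WT mice, which overlapped. DESeq2 called it too and limma-voom did not. In the marker lists edgeR called only 1 of 10 bone-forming and 2 of 10 cord genes between the genotypes, all 3 lower in ETAQ+/- mice. These were Spp1, which bone and motor neurons both express (-0.42 ± 0.05, adjusted p = 0.000526), and the neuronal genes Nefl and Chat. Limma-voom made the same calls. DESeq2 made them too and also called Mal of the Schwann cell list (higher in ETAQ+/- mice), Gfap and Snap25.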

How the data were processed

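RNA of whole spinal cord from 12 mice was measured as 75 bp paired reads of polyA RNA, per the labels' protocols. Bowtie2 2.2.0 and RSEM 1.2.12 are named in the submitters' processing notes. For genome build, annotation and strand setting, nothing is given in the sources used here. Each library's table, as deposited by the authors, gives expected counts without normalisation (15.4% not whole). Its TPM column, also deposited, corrects for gene length and depth.

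Expected counts were rounded and tested in R 4.3.3 with edgeR 4.0.16 (robust quasi-likelihood test, TMM factors 0.975 to 1.02, filterByExpr on the 4 genotype-by-sex groups), for set with sex and genotype as covariates and for genotype with sex. P-values are two-sided and Benjamini-Hochberg adjusted over the 17189 tested genes; calls are at 0.05. The SE is the log2 fold change over the square root of F. TPM served for levels, sums and ratios, with no test. A limit of 3 counts came to 0.0724 to 0.127 CPM and covers counting error only. Alternatives were DESeq2 1.42.0, limma 3.58.1 (voom), RLE factors, other filters, other covariates and leaving out each mouse. Fits were tested on simulated data.

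Members, classes, lists and the set comparison were chosen with earlier results of these data known. Every called member was named; values were given for the 3 highest members of each class, for genotype calls and for the 6 largest set calls, and up to 4 genes were named per list. Positions came from GENCODE M21 (GRCm38), which matched all 44 members; promoters were 250 bases before RefSeq starts. The authors' build may differ. At most 3.74% of a member's 75-base sequences occurred in another gene.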

Additional observations from a re-analysis of the deposited data

Results flagged for a closer look

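A mouse far from the other 5 of its group was looked for in 184 groups of 6 values, and 7 were found, where chance gives about 1 in 20. Mouse 6 stood above the rest of mice 1 to 6 for Col1a1 (39.8 TPM, next 21.1) and Col1a2 (54.8 TPM, next 38.1). Without mouse 6 the count of called members was 13, the same genes as with it. Mouse 6 was also the highest ETAQ+/- mouse for Col16a1 (44.0 TPM, next 39.2) and for the summed fibril-associated collagens (61.7 TPM, next 53.5). Mouse 10 was the lowest of mice 7 to 12 for Col16a1 (30.9 TPM, next 36.6) and for the summed fibril-associated collagens (42.8 TPM, next 48.5), a sum in which Col16a1 is the largest term. Mouse 2 was the highest WT mouse for Col4a5 (5.02 TPM, next 4.34).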

How the results depend on the processing

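The count of collagen genes called between the sets (13) moved to 20 without sex as a covariate, 18 higher and 2 lower (Col23a1 and Col25a1). Leaving out 1 mouse gave 0 to 15 calls, with 0 without mouse 1 and 1 without mouse 11. DESeq2 gave 14, limma-voom 14, RLE factors 13, no filter 13, at least 1 CPM in 6 libraries 12, and ETAQ+/- mice alone 9, of which 8 were among the 13; Col1a1 was not called there (log2 fold change 2.72, adjusted p = 0.145). The median log2 fold change of the members between the sets ran from 0.26 to 0.36 over all these. For these alternatives the share of all genes called between the sets is not given here. Whether the counts of collagen genes moved with that share can therefore not be read from them. The count called between the genotypes (1) was 0 with limma-voom, 2 with set as a further covariate, 0 within mice 1 to 6, 0 within mice 7 to 12, and 0 to 1 on leaving out 1 mouse; without mouse 11 the call was Col4a1 in place of Col23a1. The genotype median ran from -0.0088 to 0.0951 on leaving out 1 mouse. The cause of these shifts was not tested. No called value reversed its sign under any of these settings. The difference between the sets in the genotype effect gave 0 calls under each alternative run for it, all chosen after seeing the data. No paired analysis was possible because each mouse number occurs in 1 group only. At the lowest depth, 3 counts came to 0.127 CPM, which limits what can be read for Col10a1, Col17a1, Col6a4, Col6a5 and Col28a1. The lowest count in a library was 2 for Col6a4, 5 for Col6a5 and 8 for Col28a1.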
